A study of Mus musculus with 6 samples.

Results

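The genes described here are 9 markers of pericytes and smooth muscle, the contractile cells that wrap blood vessels: Pdgfrb, Rgs5, Notch3, Acta2, Des, Abcc9, Higd1b, Myl9 and Tagln. They were chosen by name, and all 9 were found by Ensembl identifier among the 32371 genes of the count table. All 9 passed the filter on low counts, which left 18138 genes for testing. The RNA came from retinas of adult C57BL/6J mice that received an intravitreal injection of adeno-associated virus, either AAV2-GFP as control or AAV2-Ezh2-Y726D. Ezh2-Y726D is a catalytically inactive form of Ezh2, the histone methyltransferase of polycomb repressive complex 2. All mice had an optic nerve crush 2 weeks later, and cells were sorted 3 days after the crush as live cells positive for CD90.2, the product of Thy1, in order to enrich retinal ganglion cells (RGCs). There were 3 libraries of each group, and the question was how Ezh2-Y726D changed gene expression in the enriched cells. AAV2 also transduces other retinal cells. Whether animals were pooled, and whether libraries came from separate mice, is not given in the sources used here, so the p-values measure the spread between these libraries, which may be technical.

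Pericytes sit on retinal capillaries, where they stabilise the vessel and take part in the control of blood flow, and smooth muscle cells surround the arterioles. Endothelial cells recruit pericytes with platelet-derived growth factor B (PDGF-B), which binds the receptor encoded by Pdgfrb. Notch3 is activated by ligands such as Jagged1 and maintains smooth muscle of arteries, and contractile genes such as Acta2 and Tagln are switched on by serum response factor through DNA elements called CArG boxes. The retina is dense in pericytes, but these cells are not the cells that the sort was meant to collect.

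The libraries held between 9333244 and 23782520 counts. A gene for ribosomal RNA (CT010467.1) took 50.9% and 52.2% of the counts of GFP replicates 2 and 3 and between 2.55% and 16.1% of the other libraries, so counts left for other genes were between 4460732 and 22024582. These 2 GFP libraries are the shallowest, and values were scaled by trimmed mean of M-values (TMM) to CPM, the read count relative to the scaled depth of the library. Ezh2, counted together with any transcript of the vector that maps to it, measured 22.7, 23.8 and 26.3 CPM with GFP and 65.1, 65.5 and 65.1 CPM with Ezh2-Y726D (log2 fold change 1.46, SE 0.061, edgeR, adjusted p = 3e-16). Thy1 was at 99.5 to 111 CPM with GFP and 112 to 122 CPM with Ezh2-Y726D, and the RGC marker Rbpms was at 14.1 to 16.9 and 12.4 to 14.3 CPM. The libraries labelled as RGCs also held RNA typical of other retinal cells, such as the Müller glia gene Glul at 2740 CPM or more in each.

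As a set of markers, the 9 genes were read in every library, and several defining genes of the same cells were present beside them, including the pericyte gene Vtn at 113 to 125 CPM and the smooth muscle myosin Myh11 at 6.00 to 10.8 CPM. Other smooth muscle genes were close to 0: calponin (Cnn1) reached at most 0.166 CPM and phospholamban (Pln) at most 0.169 CPM. Vtn is made by other cells of the retina as well, so its RNA is not a count of pericytes. A lower level of such a marker in bulk RNA can come from fewer cells of that type or from less RNA per cell, and these cannot be told apart here.

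Promoter sequence was printed for the 2 members called lower with the smallest p-values, Rgs5 and Abcc9, and for a pair of contractile cytoskeleton genes of which one was called (Des) and one was not (Myl9). The sequences are from RefSeq (GRCm38.p6), 5′ to 3′ on the strand of the gene, and stop before the first base of the gene in both RefSeq and GENCODE. Capitals mark the letters GGGCGG, the core of a GC box, in either direction (CCGCCC on the other strand), and a CArG box.
Rgs5, chr1:169655251-169655500, plus strand: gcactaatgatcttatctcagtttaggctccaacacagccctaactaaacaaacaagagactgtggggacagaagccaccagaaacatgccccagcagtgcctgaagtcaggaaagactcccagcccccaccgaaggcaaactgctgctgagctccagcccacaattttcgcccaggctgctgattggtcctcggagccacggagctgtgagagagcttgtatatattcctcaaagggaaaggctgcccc
Abcc9, chr6:142702316-142702524, minus strand: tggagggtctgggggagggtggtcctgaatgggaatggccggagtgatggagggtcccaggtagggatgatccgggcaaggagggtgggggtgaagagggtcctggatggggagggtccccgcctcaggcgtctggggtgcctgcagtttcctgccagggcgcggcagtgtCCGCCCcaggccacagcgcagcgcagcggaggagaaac
Des, chr1:75360042-75360291, plus strand: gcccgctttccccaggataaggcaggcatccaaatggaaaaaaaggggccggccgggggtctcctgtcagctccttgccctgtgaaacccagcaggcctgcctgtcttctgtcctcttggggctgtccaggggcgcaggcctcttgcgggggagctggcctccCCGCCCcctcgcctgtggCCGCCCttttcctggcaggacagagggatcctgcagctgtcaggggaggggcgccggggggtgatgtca
Myl9, chr2:156775214-156775419, plus strand: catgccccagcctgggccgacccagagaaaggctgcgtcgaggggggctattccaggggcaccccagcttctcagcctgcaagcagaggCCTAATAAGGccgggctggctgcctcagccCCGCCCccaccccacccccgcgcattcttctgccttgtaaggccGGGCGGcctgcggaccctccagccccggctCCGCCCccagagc

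RefSeq windows of 250 bases before the transcription start were given for 6 members (Rgs5, Notch3, Acta2, Des, Abcc9 and Myl9), and motifs were searched on both strands in these windows and in all 32851 windows of the table. A CArG box (CC, then 6 bases of A or T, then GG) was found in 1 of the 6, Myl9, as CCTAATAAGG at 161 to 152 bases before the start, and in 1.47% of all windows. Only this exact pattern was searched, so a box that departs from it would not be found. The Acta2 window (chr19:34255374-34255623) lies mostly inside the gene as GENCODE places it, which reaches 34255590. GGGCGG was found in 4 of the 6 (Notch3, Des, Abcc9 and Myl9) and in 32.7% of all windows. TGGGAA, the core of the site bound by RBPJ, the DNA-binding partner of Notch, was found in Acta2 and Abcc9 and in 21.6% of all windows. TATAAA was found in none of the 6 and in 12.4% of all windows. The windows of Rgs5 and Acta2 held 4 CpG dinucleotides each, below the median of 6 over all windows, and those of Des, Abcc9, Myl9 and Notch3 held 10, 12, 16 and 17. Thus the members called lower had both CpG-poor and CpG-rich windows. A match of letters is a description of the window and does not show that a factor binds there.

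Between the groups, 7 of the 9 members were lower with Ezh2-Y726D at an adjusted p under 0.05 (edgeR's quasi-likelihood test, Benjamini-Hochberg adjustment over 18138 genes), and none was higher. Over all genes tested, 13.6% were called lower and 13.9% higher. The called members were Pdgfrb, Rgs5, Notch3, Acta2, Des, Abcc9 and Tagln, and their levels with Ezh2-Y726D were between 62.3% and 86.2% of those with GFP. Myl9 and Higd1b were not called. With a fold change over 1.5 required as well, Des and Abcc9 remained called, both lower, against 5.50% of all genes tested that were lower by this rule. The 3 values of each group did not overlap for 6 members, all lower with Ezh2-Y726D, against 18.9% of all genes tested that were lower and 19.7% that were higher without overlap. The median log2 fold change of the members was -0.32, and over all genes it was 0.0018. These counts depended on the test and on depth: DESeq2 called 3 members (Pdgfrb, Rgs5 and Abcc9), and counts thinned to the depth of the shallowest library left 4 of 8 tested members called. Leaving out GFP replicate 1, the deepest GFP library, also left 4. Without the 2 GFP libraries rich in ribosomal RNA, with GFP replicate 1 as the only GFP library, 6 members were called, but that fit has no spread among GFP libraries and assumes that the lone one varies like the Ezh2-Y726D libraries.

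**Figure D1:**
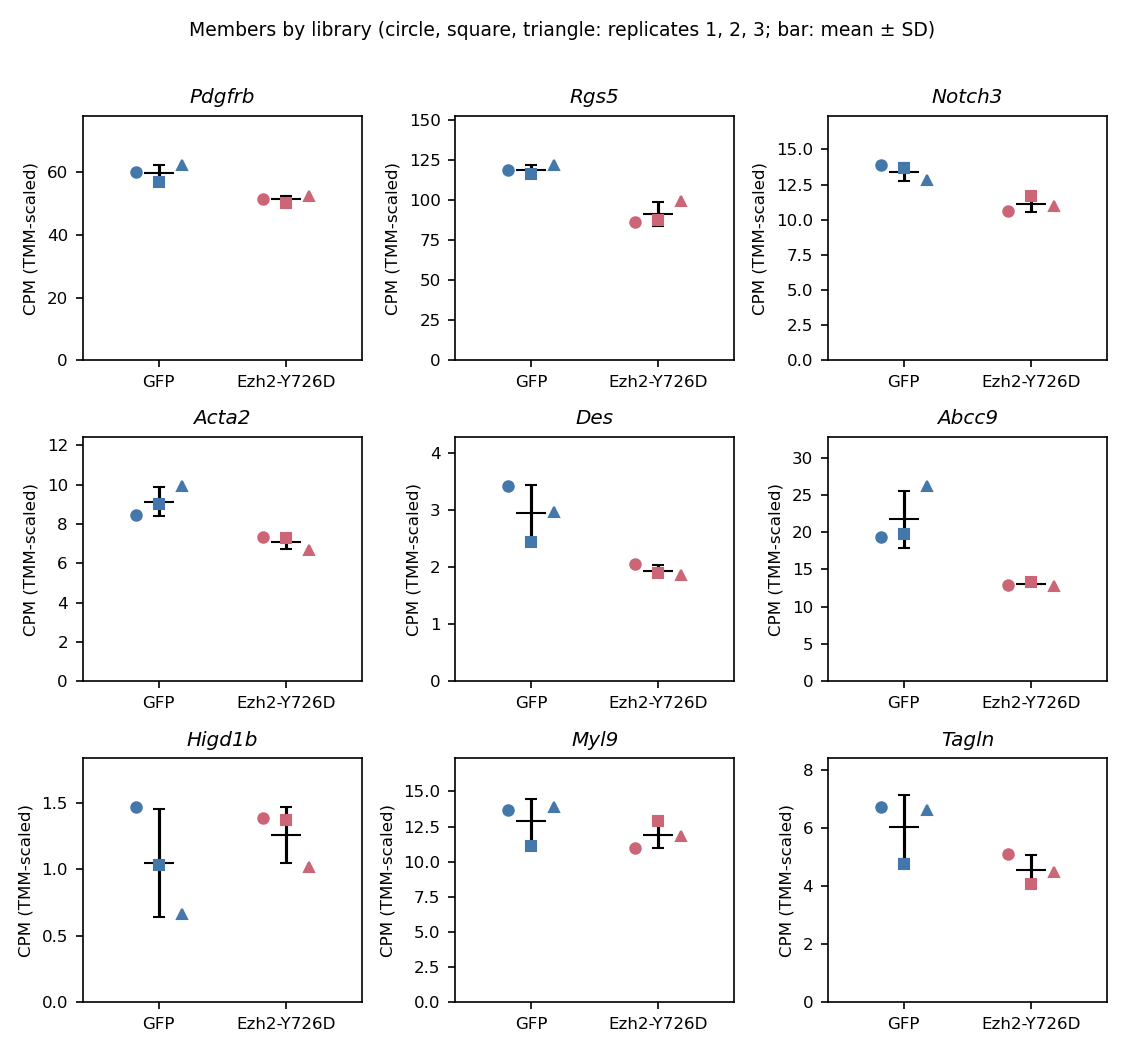
CPM after TMM scaling (vertical axis from 0, linear, a scale of its own in each panel) of the 9 members in the 3 GFP (blue) and 3 Ezh2-Y726D (red) libraries, with circles, squares and triangles for replicates 1, 2 and 3 and black bars for mean ± SD. In 6 panels (Pdgfrb, Rgs5, Notch3, Acta2, Des and Abcc9) each red point is below each blue point, and in the panels of Higd1b, Myl9 and Tagln the points overlap.

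Pdgfrb (ENSMUSG00000024620; chr18:61045150-61085061, plus strand; coordinates here and below from GENCODE vM21 on GRCm38) encodes the receptor through which PDGF-B recruits pericytes. Its level was 59.9, 56.8 and 62.3 CPM with GFP against 51.5, 50.1 and 52.4 CPM with Ezh2-Y726D. The 2 groups were separated, and the libraries of each group lay close together, with SDs of 2.75 and 1.17 CPM (n = 3 each). The difference was small: the log2 fold change was -0.21 with an SE of 0.052 and a 95% confidence interval of -0.32 to -0.11 (edgeR, adjusted p = 0.00229).

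None of the ligands was called lower. Pdgfb, the ligand of the endothelium, had a log2 fold change of -0.02 (edgeR, adjusted p = 0.946), with 5.30 to 6.31 CPM over the 6 libraries. Of the 5 other PDGF ligand and receptor genes (Pdgfa, Pdgfb, Pdgfc, Pdgfd and Pdgfra), 1 was called higher and none lower. This was Pdgfd, a ligand of the same receptor, with a log2 fold change of 0.32 and an SE of 0.095 (edgeR, adjusted p = 0.0117). Pdgfra, the sister receptor, had a log2 fold change of 0.18 that missed the threshold (edgeR, adjusted p = 0.0553).

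Rgs5 (ENSMUSG00000026678; chr1:169655501-169695813, plus strand) encodes a regulator that switches off G protein signalling and is one of the most abundant pericyte transcripts. Levels were 119, 116 and 122 CPM with GFP and 86.4, 87.8 and 99.6 CPM with Ezh2-Y726D. All 3 Ezh2-Y726D libraries were lower than all GFP libraries, and Ezh2-Y726D replicate 3 was nearest to them. The level was 76.7% of that with GFP, with a log2 fold change of -0.38 and an SE of 0.049 (95% confidence interval -0.48 to -0.28, edgeR, adjusted p = 5.26e-07). Of the members it had the smallest p-value.

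Among 6 tested relatives of Rgs5 in the R4 family of these regulators, Rgs1, Rgs3 and Rgs4 were called lower and Rgs8 higher. Rgs4, which is also made by pericytes, was at 46.5 to 49.6 CPM with GFP and at 35.8 to 42.2 CPM with Ezh2-Y726D, a log2 fold change of -0.29 (edgeR, adjusted p = 0.000722). Rgs8, a gene expressed in neurons, was at 158 to 177 and 229 to 238 CPM, a log2 fold change of 0.47. Rgs2 and Rgs16 were not called, and Rgs18 did not pass the filter.

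Notch3 (ENSMUSG00000038146; chr17:32120820-32166852, minus strand) encodes the Notch receptor of mural cells, the joint name for pericytes and smooth muscle. It was at 13.9, 13.7 and 12.8 CPM with GFP and at 10.6, 11.7 and 11.0 CPM with Ezh2-Y726D. The groups did not overlap. The log2 fold change was -0.30 with an SE of 0.091 (edgeR, adjusted p = 0.0117), and the call was lost without GFP replicate 1 (adjusted p = 0.151) and with DESeq2 (adjusted p = 0.13). Exons of Gm17276 on the opposite strand cover 6.03% of its exonic bases.

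Of 13 other genes of the Notch pathway, 5 were lower and 2 higher, and 3 were lower after thinning or without Ezh2-Y726D replicate 3. The lower ones were the ligands Jag1 and Dll1, the receptors Notch1 and Notch2 and the DNA-binding partner Rbpj, and the higher ones were the target genes Hes1 and Hey1. Jag1 was at 30.0 to 32.5 CPM with GFP and 24.9 to 26.9 CPM with Ezh2-Y726D, a log2 fold change of -0.29 (edgeR, adjusted p = 0.000758). Heyl, a target of Notch3 in smooth muscle, was at 2.03, 2.45 and 3.15 CPM with GFP and 1.91, 1.47 and 2.00 CPM with Ezh2-Y726D and was not called (edgeR, adjusted p = 0.281).

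Acta2 (ENSMUSG00000035783; chr19:34241090-34255590, minus strand) encodes smooth muscle alpha-actin, the actin of arteriolar smooth muscle and of contractile pericytes. Its transcripts were at 8.48, 9.02 and 9.94 CPM with GFP and at 7.36, 7.29 and 6.67 CPM with Ezh2-Y726D. The groups were separated, with a log2 fold change of -0.32 and an SE of 0.11 (edgeR, adjusted p = 0.0306). This was the weakest of the 7 calls, and 7 of 16 alternative analyses left the direction in place but not the call, among them DESeq2 (adjusted p = 0.159) and 3 of the 6 that leave out 1 library.

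Tagln (ENSMUSG00000032085; chr9:45929619-45936058, minus strand) encodes transgelin, an actin-binding protein of smooth muscle. Its level was 6.73, 4.77 and 6.63 CPM with GFP and 5.10, 4.06 and 4.50 CPM with Ezh2-Y726D. The groups overlapped, since GFP replicate 2 was below Ezh2-Y726D replicate 1. The log2 fold change was -0.45 with an SE of 0.14 (edgeR, adjusted p = 0.019), and without GFP replicate 1 it was -0.29 with an adjusted p of 0.365. Exons of Pcsk7 and Gm48529 on the opposite strand cover 67.9% of its exonic bases. Pcsk7 ends at position 45929726, shortly after the start coordinate of Tagln, so most of this cover is by Gm48529. The level of Gm48529 is not given here. Whether the counts used strand is not given in the sources used here, so reads of either gene may be among those of Tagln. Pcsk7 itself was at 24.7 to 28.8 CPM in all libraries, with a log2 fold change of 0.005 (edgeR, adjusted p = 0.968).

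Myl9 (ENSMUSG00000067818; chr2:156775420-156781658, plus strand) encodes the regulatory light chain of smooth muscle myosin, and is also expressed in other cells. It was at 13.7, 11.1 and 13.9 CPM with GFP and at 11.0, 12.9 and 11.8 CPM with Ezh2-Y726D. The libraries of the 2 groups were interleaved. The log2 fold change was -0.15 with a 95% confidence interval of -0.35 to 0.05 (edgeR, adjusted p = 0.29), and without GFP replicate 1 it was -0.06. The interval reaches the estimates of Notch3 and Acta2 but not those of Rgs5, Tagln, Des and Abcc9. Those estimates have intervals of their own, and that of Tagln (-0.745 to -0.155) overlaps the interval of Myl9. Whether Myl9 differs from the other members was not tested.

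Des (ENSMUSG00000026208; chr1:75360329-75368579, plus strand) encodes desmin, the muscle-type intermediate filament that retinal pericytes and smooth muscle cells contain. Desmin RNA was at 3.43, 2.45 and 2.98 CPM with GFP and at 2.06, 1.91 and 1.86 CPM with Ezh2-Y726D. All 3 Ezh2-Y726D libraries were below the lowest GFP library, at 62.3% of the GFP level. The log2 fold change was -0.68 with an SE of 0.20 (95% confidence interval -1.09 to -0.28, edgeR, adjusted p = 0.00896). Its values rest on 18 and 19 counts in the 2 shallow GFP libraries, and leaving out GFP replicate 1 gave a log2 fold change of -0.47 and an adjusted p of 0.288. Exons of Gm15179 on the opposite strand cover 5.86% of its exonic bases. Of 6 listed markers of skeletal muscle, which also makes desmin, 5 were found in the table and 2 passed the filter. Acta1 was at 1.08 to 2.32 CPM and Mylpf at 0.676 to 1.33 CPM over the libraries, neither was called, and Ckm was at 0 to 0.166 CPM. The 5 summed to 2.32 to 3.81 CPM with GFP and 1.88 to 2.61 CPM with Ezh2-Y726D, a level like that of Des, and their part in its difference was not tested.

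In the wider contractile list of 12 genes, 9 passed the filter, 2 were called lower (1 after thinning) and none higher. Mylk, the kinase that phosphorylates the myosin light chain, had a log2 fold change of -0.22 (edgeR, adjusted p = 0.000765). Mustn1, a small gene active in muscle, was at 2.83 to 2.98 CPM with GFP and 0.930 to 1.73 CPM with Ezh2-Y726D, a log2 fold change of -1.08 with an SE of 0.23 (edgeR, adjusted p = 0.000528). Myh11 was at 6.06, 8.11 and 10.8 CPM with GFP and 6.00, 6.17 and 7.07 CPM with Ezh2-Y726D, with a log2 fold change of -0.20 (edgeR, adjusted p = 0.377). Lmod1, leiomodin of smooth muscle, was under 1 CPM in each library (log2 fold change 0.37, adjusted p = 0.503). The median of the 9 was -0.13. Of serum response factor and its cofactors, Srf, Myocd and Mrtfb were not called, and Mrtfa was lower with a log2 fold change of -0.25 (edgeR, adjusted p = 0.0073), a call that was lost with DESeq2, after thinning, without GFP replicate 1 and without Ezh2-Y726D replicate 3.

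Abcc9 (ENSMUSG00000030249; chr6:142587862-142702315, minus strand) encodes SUR2, the sulfonylurea receptor subunit of the ATP-sensitive potassium channel of mural cells. Levels were 19.3, 19.7 and 26.2 CPM with GFP and 12.9, 13.3 and 12.8 CPM with Ezh2-Y726D. The Ezh2-Y726D libraries lay within an SD of 0.239 CPM, and the GFP libraries, with an SD of 3.87 CPM, were all higher. The log2 fold change was -0.68 with an SE of 0.091 (95% confidence interval -0.86 to -0.49, edgeR, adjusted p = 9.76e-07). Under the alternatives other than scaling by library totals it stayed between -0.80 and -0.57, with an adjusted p of at most 2.22e-05.

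Kcnj8 encodes Kir6.1, the pore that assembles with SUR2, and lies next to Abcc9 on chromosome 6 on the same strand, 16247 bases away. It was at 7.08, 5.92 and 6.29 CPM with GFP and at 3.87, 4.16 and 4.67 CPM with Ezh2-Y726D. Again the groups did not overlap, and the log2 fold change was -0.65 with an SE of 0.14 (edgeR, adjusted p = 0.000494), close to that of Abcc9. The call of Kcnj8 was lost without GFP replicate 1 and after thinning. The genes of the other channel of this kind, Kcnj11 and Abcc8, used in neurons and pancreatic beta cells, were not called (log2 fold changes 0.17 and -0.06, adjusted p = 0.308 and 0.763). Whether the fold changes of the 2 channels differ was not tested.

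Higd1b (ENSMUSG00000020928; chr11:102835849-102838040, plus strand) is named as a pericyte marker in brain and lung. It had 42, 8 and 4 counts in the GFP libraries and 37, 28 and 30 in the Ezh2-Y726D libraries. On the CPM scale these were 1.47, 1.03 and 0.663 with GFP and 1.39, 1.37 and 1.02 with Ezh2-Y726D, and the groups overlapped. The log2 fold change was 0.005 with a 95% confidence interval of -0.60 to 0.61 (edgeR, adjusted p = 0.994), so a decrease like that of Rgs5 or Notch3 was not detectable at this depth. Its sign changed with the library left out.

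Compared per length of exons, as CPM per kb averaged over the 6 libraries, the members were ordered Rgs5 (23.2), Myl9 (10.7), Pdgfrb (10.1), Acta2 (3.70), Tagln (2.66), Abcc9 (2.07), Notch3 (1.52), Higd1b (1.37) and Des (0.652). Rgs5 stood above the others in each library, with 19.0 CPM per kb or more, whereas Myl9 reached at most 12. Myl9 and Pdgfrb did not differ beyond their spread, with 9.43 to 12 and 9.14 to 11.4 CPM per kb, nor did Notch3 and Higd1b, with 1.31 to 1.72 and 0.782 to 1.74. Pooled over libraries, the ranges of Acta2 (3.04 to 4.53), Tagln (2.04 to 3.38) and Abcc9 (1.53 to 3.13) overlapped each other. That of Abcc9 overlapped those of Notch3 and Higd1b, and that of Higd1b overlapped that of Des (0.496 to 0.914). Within each library, however, Acta2 was above Tagln, Tagln above Abcc9 and Abcc9 above Notch3. With Ezh2-Y726D alone, the mean of Higd1b (1.49) was above that of Notch3 (1.37). Among all genes tested, the members ranked from percentile 16.4 (Des) to percentile 93.1 (Rgs5) on this scale. Summed over the members, the libraries had 246, 235 and 258 CPM with GFP and 188, 190 and 202 CPM with Ezh2-Y726D.

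Since all values so far depend on how libraries are scaled, counts of each member were also divided by those of Pdgfrb in the same library, which needs no scaling. The ratio of Abcc9 to Pdgfrb was 0.322, 0.347 and 0.420 with GFP and 0.251, 0.265 and 0.244 with Ezh2-Y726D. The ratio of Rgs5 to Pdgfrb was 1.99, 2.05 and 1.97 with GFP and 1.68, 1.75 and 1.90 with Ezh2-Y726D. For Des it was 0.0573, 0.0431 and 0.0479 with GFP and 0.0401, 0.0381 and 0.0355 with Ezh2-Y726D. These 3 ratios were lower without overlap, as were 7.21% of all genes tested against Pdgfrb, and the other 5 overlapped between the groups. Within the members, then, the ratios of Abcc9, Rgs5 and Des to Pdgfrb were lower, though no ratio was tested. The separation of Des is narrow, with 0.0431 in GFP replicate 2 against 0.0401 in Ezh2-Y726D replicate 1. It rests on few reads, since GFP replicate 2 had 19 counts of Des. For Notch3, Acta2, Tagln, Myl9 and Higd1b a change relative to Pdgfrb was not seen beyond the spread of the libraries.

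**Figure D2:**
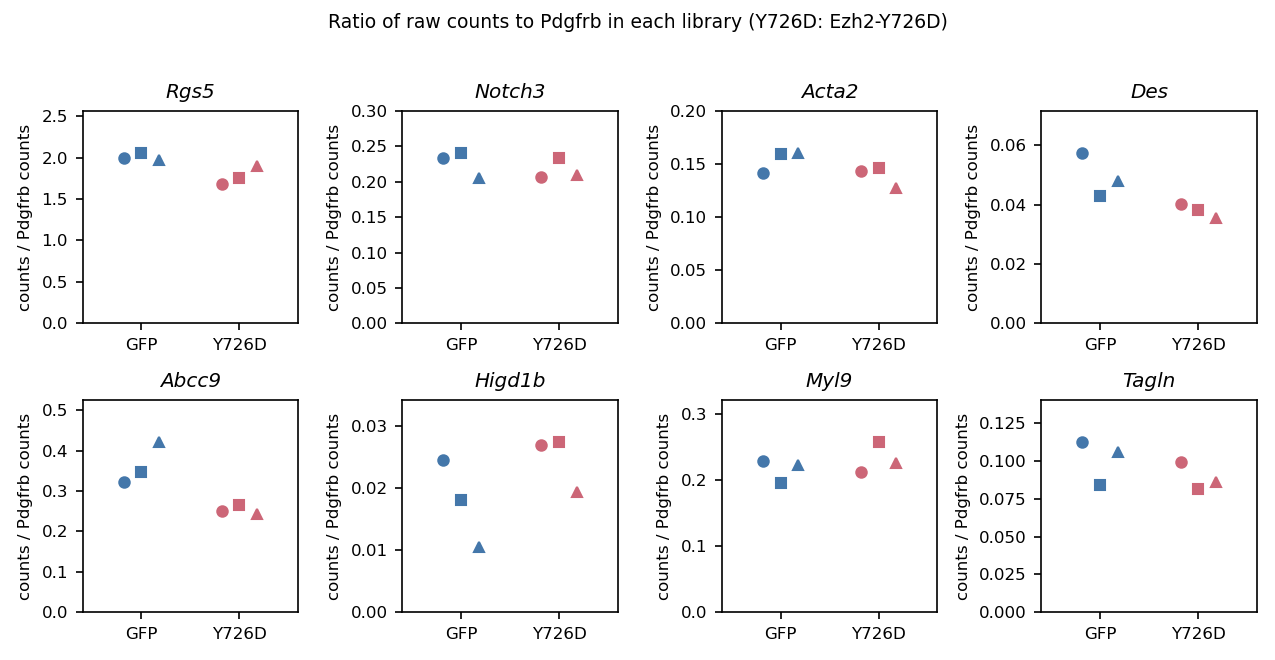
Raw counts of 8 members divided by the counts of Pdgfrb in the same library (vertical axis from 0, linear, no unit), for the 3 GFP (blue) and 3 Ezh2-Y726D (red) libraries, with circles, squares and triangles for replicates 1, 2 and 3. The red points are all below the blue points for Rgs5, Des and Abcc9, where for example Abcc9 has 0.244 to 0.265 against 0.322 to 0.420, and overlap them for the other 5.

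The 15 further pericyte markers gave a mixed picture, with 4 lower, none higher and 11 not called, and a median log2 fold change of -0.29. Anpep, an aminopeptidase on the pericyte surface, was at 6.13, 6.44 and 6.96 CPM with GFP and 2.96, 4.21 and 3.05 CPM with Ezh2-Y726D, a log2 fold change of -0.92 with an SE of 0.15 (edgeR, adjusted p = 2.58e-05). P2ry14, a receptor for UDP-glucose, had a log2 fold change of -0.61 (adjusted p = 0.00276), and Kcnj8 and Rgs4 were the other called genes. Cspg4, which encodes the NG2 proteoglycan, was at 4.94, 4.51 and 3.31 CPM with GFP and 4.32, 3.28 and 2.30 CPM with Ezh2-Y726D, which missed the threshold (log2 fold change -0.47, adjusted p = 0.0715). Vtn, which encodes vitronectin, had a log2 fold change of -0.05 and an SE of 0.043 (adjusted p = 0.498). Cox4i2 and Mcam, at 19.8 CPM or more in each library, were not called either. The sum of the 15 was 261 to 270 CPM with GFP and 246 to 253 CPM with Ezh2-Y726D, of which Vtn made up the largest share.

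**Figure D3:**
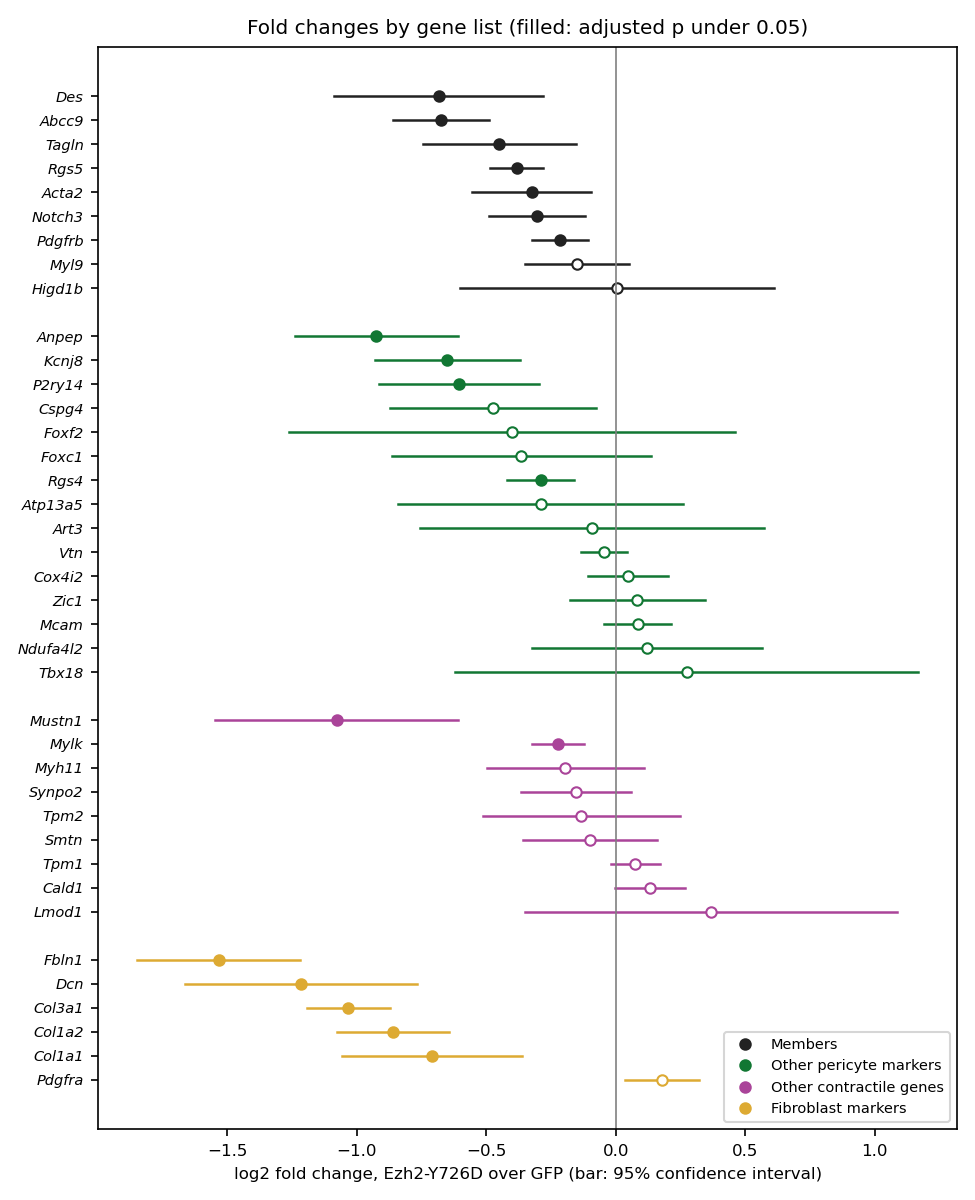
Log2 fold change of Ezh2-Y726D over GFP (horizontal axis; points) with 95% confidence intervals (bars) for the 9 members, the 15 other pericyte markers, the 9 tested contractile genes and the 6 tested fibroblast markers, filled where the adjusted p was under 0.05. Of the members, 7 points are filled and to the left of 0, Higd1b has the widest interval (-0.60 to 0.61), and the fibroblast genes other than Pdgfra lie further left than each member, at -0.71 to -1.53.

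Markers of other vascular, glial and neuronal cells moved between the same groups. Of 6 tested fibroblast markers, the collagens Col1a1, Col1a2 and Col3a1, the proteoglycan gene Dcn and Fbln1 were lower, with log2 fold changes of -0.71, -0.86, -1.03, -1.22 and -1.53, and the 7 listed genes summed to 108 to 129 CPM with GFP and 74.8 to 82.4 CPM with Ezh2-Y726D, while Lum was at 0.245 CPM or less. Perivascular fibroblasts also express Pdgfrb and part of the contractile genes. Of 14 endothelial markers, 3 were lower and none higher, and the sums overlapped at 993 to 1060 CPM with GFP and 933 to 998 CPM with Ezh2-Y726D. Most of that sum was Kdr and Flt1 (the latter not called, means of 199 and 214 CPM), so it says little of the other genes in the list. Without overlap, 5 of the 14 were lower and 2 higher, against 18.9% and 19.7% of all genes tested. Kdr, the third called gene, had means of 762 and 695 CPM and a log2 fold change of -0.13 (edgeR, adjusted p = 0.0111). Of the other 2 called, the junction protein gene Esam, which mural cells also express, had a log2 fold change of -0.79 (adjusted p = 4.29e-07), and Pecam1 one of -0.33 (adjusted p = 0.0371). Cldn5 and Cdh5, defining genes of the endothelium, were not called, with log2 fold changes of 0.04 and -0.34 and adjusted p of 0.898 and 0.225. Thus 11 of the 14 endothelial markers did not pass the test, and without Ezh2-Y726D replicate 2 only 1 was called lower.

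Of 6 microglia markers, 4 were lower and 1 higher, with C1qa at a log2 fold change of -0.84 and sums of 572 to 637 and 396 to 466 CPM. Csf1r, the microglia gene that follows Pdgfrb on chromosome 18 on the same strand after 15536 bases, had a log2 fold change of -0.39 (edgeR, adjusted p = 8.2e-07). All 7 amacrine markers were higher, with sums of 712 to 785 CPM with GFP and 1160 to 1210 CPM with Ezh2-Y726D and log2 fold changes of 0.69, 0.61, 0.70 and 0.75 for Gad1, Gad2, Slc32a1 and Slc6a9. Of 5 rod markers, 2 were higher and none lower, with sums of 5280 to 5420 CPM with GFP and 5810 to 5990 CPM with Ezh2-Y726D. All 5 cone markers were lower (sums of 343 to 359 and 227 to 238 CPM), with Gnat2 at -0.72, Opn1sw at -0.64 and Pde6h at -0.61. Of 6 bipolar markers 5 were lower and 1 higher (959 to 976 and 789 to 814 CPM), with Cabp5 at -0.61. Of 6 Müller glia markers 3 were lower (8110 to 8520 and 6730 to 6950 CPM), with Apoe at -0.64, a list median of -0.12 and no call for Rlbp1, Glul and Aqp4, and of 3 tested astrocyte markers 2 were lower (288 to 326 and 240 to 285 CPM for all 4), with S100b at -0.62. Of 11 RGC markers, Isl1 was lower (2 genes were without Ezh2-Y726D replicate 1) and Pou4f1 and Thy1 were higher, the latter by 0.13 (adjusted p = 0.0315), Rbpms was not called (log2 fold change -0.20, adjusted p = 0.0985), and the sums overlapped at 494 to 507 and 468 to 506 CPM. Of 3 tested markers of the retinal pigment epithelium none was called, and the 5 listed summed to 2.94 to 3.81 and 2.96 to 3.32 CPM, with Rpe65 and Mlana close to 0. The part of these shifts in the levels of the pericyte and smooth muscle genes was not tested.

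**Figure D4:**
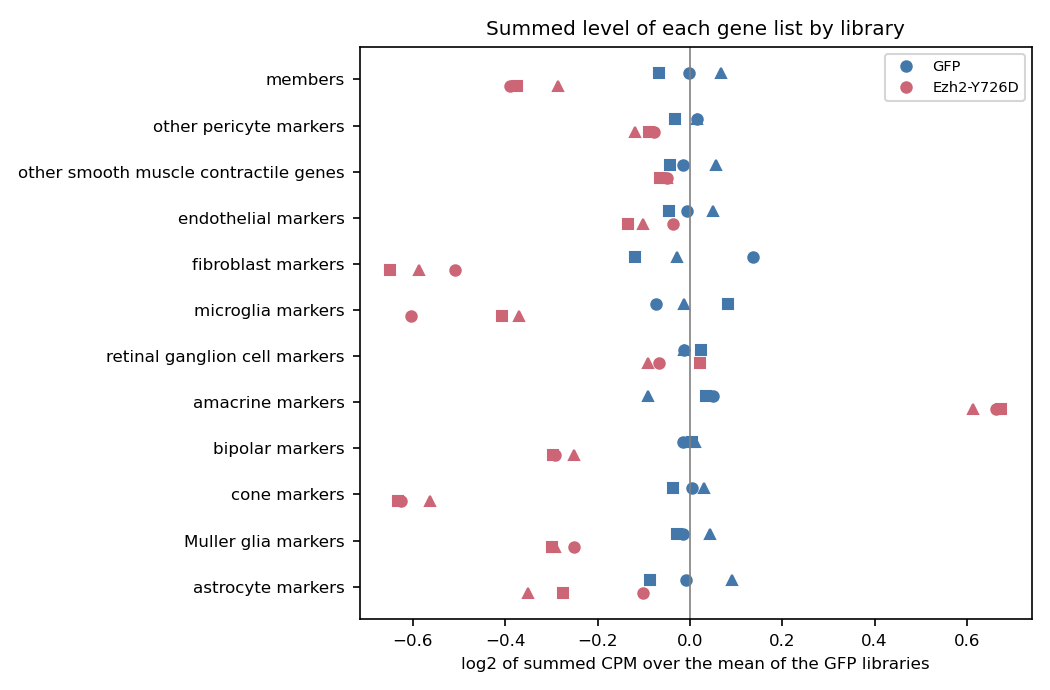
Summed CPM of the members and of selected cell type and contractile gene lists in each library, as the log2 of its ratio to the mean of the 3 GFP libraries (horizontal axis), for GFP (blue) and Ezh2-Y726D (red) with circles, squares and triangles for replicates 1, 2 and 3. Among the lists drawn, the amacrine list is higher in the 3 Ezh2-Y726D libraries, and the endothelial and RGC lists overlap between the groups. The endothelial sum is mostly Kdr and Flt1. The members (188 to 202 against 235 to 258 CPM) and the other lists drawn are lower without overlap. The rod, PDGF and R4 lists, also higher without overlap, are not drawn.

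The direction of most members' differences depended on scaling that accounts for the ribosomal RNA. When counts were divided by library totals with that gene included, the median over all genes moved to 0.49 (log2), and 65 genes were called, none of them a member. Nor was any gene of the other pericyte, contractile, endothelial and fibroblast lists called lower then. Relative to that median, 8 members kept a difference of -0.14 or lower and Higd1b one of -0.01. With the ribosomal RNA gene left out of the totals, 7 members were called as before. Pdgfrb, Rgs5 and Abcc9 kept an adjusted p under 0.05 in all alternatives other than library totals, including DESeq2 and each analysis that left out 1 library.

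**Figure D5:**
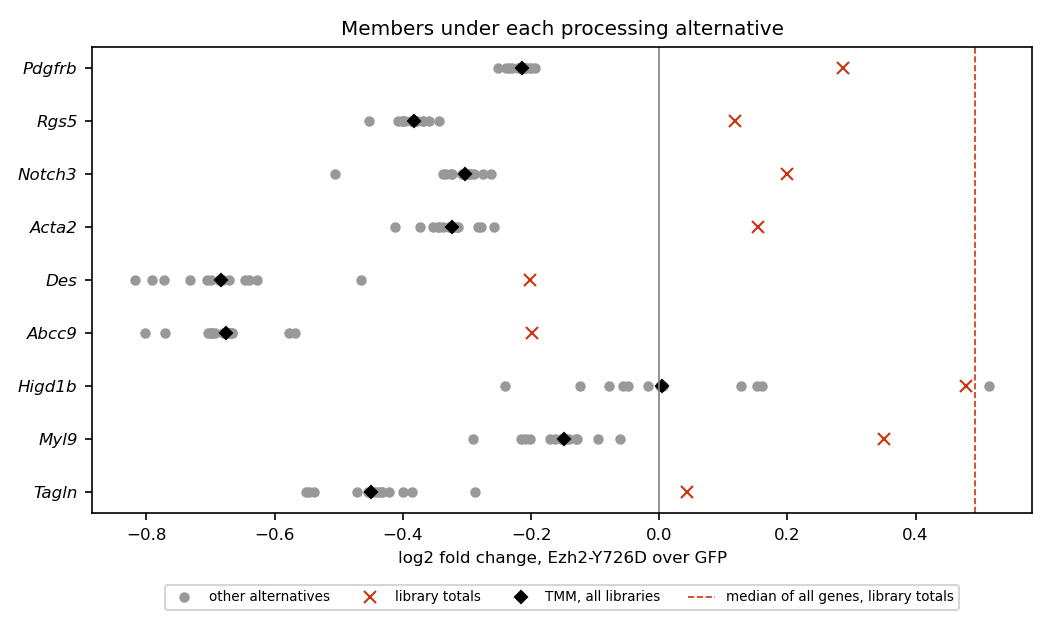
Log2 fold change of Ezh2-Y726D over GFP (horizontal axis) for each member with TMM scaling of all libraries (black diamonds), with scaling by library totals (red crosses; the dashed red line is the median of all genes under it, 0.49) and under each other alternative (grey points). Apart from library totals, the points of 8 members stay left of 0, and those of Higd1b lie on both sides.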

How the data were processed

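The authors deposited 1 table of raw read counts per gene for the 6 libraries, whose kit for total RNA keeps strand. The submitters' processing notes name STAR 2.7.0d and the build GRCm38; the counting tool, the annotation and the use of strand are not given in the sources used here. Symbols were found for 32325 of 32371 identifiers, and coordinates came from GENCODE vM21. From these counts, CPM with TMM factors were computed in edgeR 4.0.16 (R 4.3.3). Genes passing filterByExpr (minimum count 10, minimum total 15) were tested with edgeR's quasi-likelihood test on group alone, with Benjamini-Hochberg adjustment and a threshold of 0.05, on all 6 libraries. Standard errors are the log2 fold change over the square root of F. The script was tested on simulated data. DESeq2 1.42.0, other scalings, filters and thinning, a replicate block and leaving out libraries were the alternatives. The analysis with GFP replicate 1 as the only GFP library was added after seeing the data.

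The members and the gene lists were chosen with earlier results of these data known. Named genes were the members, Ezh2, up to 5 genes of lowest p in each list that were called and changed more than 1.5-fold, a set of defining markers regardless of result, and the 5 genes with the most similar pattern; some of these are not reported here. Other genes of the lists (Pdgfd, the Rgs and Notch relatives, Mylk, Mrtfa, Heyl, Pln, Cox4i2, Mcam, Kcnj11, Abcc8, Kdr, Flt1, Acta1, Mylpf, Rlbp1, Aqp4, Csf1r, Glul and those named only for their low level) were named after their values were seen.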

Additional observations from a re-analysis of the deposited data

How the results depend on the processing

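Called genes numbered 4988, against 3440 with DESeq2, 65 with library totals and 1455 with a fold change over 1.5 required as well. The count of members called was 7, but 3 with DESeq2, 4 after thinning, 0 with library totals, 2 with the fold threshold and 4 to 7 when 1 library was left out (lowest without GFP replicate 1). With library totals, where the median over all genes was 0.49, 6 members turned positive, with log2 fold changes of 0.29 for Pdgfrb, 0.12 for Rgs5, 0.20 for Notch3, 0.15 for Acta2, 0.35 for Myl9 and 0.044 for Tagln. Under the same scaling Higd1b was at 0.48, and Des and Abcc9 stayed negative, both at -0.20. Leaving the ribosomal RNA gene out of the totals gave a median of -0.02. Higd1b changed sign without that gene in the totals (-0.017), with GFP replicate 1 alone (-0.24) and when 1 library was left out (-0.12 to 0.52). It had 4 and 8 counts in the shallow GFP libraries, which limits what can be said of it.

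Apart from library totals, the highest adjusted p was 0.02 for Pdgfrb, 2.42e-05 for Rgs5, 2.22e-05 for Abcc9, 0.151 for Notch3, 0.17 for Acta2, 0.288 for Des and 0.365 for Tagln. The cause of the lost calls was not tested. Same-numbered libraries of the 2 groups had correlations of their deviations of 0.137, 0.051 and 0.039, and the other combinations had -0.079 to 0.026. The same-numbered ones were thus the highest, but these values were small, and the numbers were not taken as pairs in the main fit. With the replicate number as a block, 5223 genes and 7 members were called.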

Other observations

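Over the 6 libraries, genes whose log2(CPM + 1) followed the mean of the members most closely were Igsf21 (Pearson r 0.9971), Gsn (0.9966), Jchain (0.9958) and Rap2b (0.9948), out of 16042 genes with a mean of at least 1 CPM. Their log2 fold changes were -0.33, -0.62, -0.27 and -0.53. The 6 points share their groups and libraries, and 1085 genes had an r over 0.9, so the likeness is a description. Of the members themselves, Higd1b had the lowest r with that mean, -0.313.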
